A study of Homo sapiens with 15 samples.

Results

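The basal and stress keratins are the 9 keratin genes KRT5, KRT14, KRT15, KRT17, KRT16, KRT6A, KRT6B, KRT6C and KRT75, chosen by name from the 61544 genes of the count table. All 9 passed the filter on low counts, which left 25108 genes for testing. They were measured by RNA-seq in HCC95 cells, an established cell line from a human lung squamous cell carcinoma (LUSC) that the labels describe as lung epithelial cells. Cells were transfected with a small interfering RNA (siRNA), a short RNA duplex that leads to degradation of the mRNA it matches, against KLF5 (siKLF5b), TP63 (siTP63b), SOX2 (siSOX2b) or GRHL2 (siGRHL2a), or with a negative control siRNA (siNC1), with 3 libraries in each of the 5 groups. A single siRNA stood for each factor, so the targeted gene and the particular siRNA cannot be told apart, and the labels do not say whether the 3 libraries of a group came from separate cultures.

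Keratins build the intermediate filaments of epithelial cells, and each filament is a polymer of pairs of a type I and a type II chain. In stratified and pseudostratified epithelia the basal cells carry the type II keratin KRT5 with the type I keratins KRT14 or KRT15. Wounding, inflammation and transformation add the stress keratins, the type II copies KRT6A, KRT6B and KRT6C with the type I chains KRT16 and KRT17. KRT75 is a type II keratin best known from the companion layer of the hair follicle. The 4 targeted genes code for transcription factors of squamous epithelium, and p63, the product of TP63, is known as an activator of basal keratin genes.

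The type II members lie on chromosome 12 and the type I members on chromosome 17, all on the minus strand of hg38. KRT5 spans chr12:52514575-52520530 and KRT6A chr12:52487176-52493257, while KRT17 spans chr17:41619442-41624842 and KRT15 chr17:41513745-41522529. Every gene was counted over its whole span, introns and exons alike. A read can match closely related copies equally well, so the copies are shown first as sequence. Printed are 90 coding bases of each from GRCh38 with the Gencode 44 canonical transcripts. For each family the ungapped stretch with the most differing positions was taken, so it overstates the typical difference. In the KRT6 stretches (coding bases 656 to 745, all in exon 2), capitals mark the 10 positions at which the copies differ.
KRT6A: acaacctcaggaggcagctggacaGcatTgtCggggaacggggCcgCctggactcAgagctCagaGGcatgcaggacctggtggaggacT
KRT6B: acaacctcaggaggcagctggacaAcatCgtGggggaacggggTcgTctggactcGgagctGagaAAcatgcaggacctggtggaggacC
KRT6C: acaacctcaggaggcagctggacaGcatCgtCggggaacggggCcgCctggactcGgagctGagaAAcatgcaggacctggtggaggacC
These stretches lie at chr12:52491532-52491621 (KRT6A), chr12:52450416-52450505 (KRT6B) and chr12:52472076-52472165 (KRT6C). Over the whole coding sequence KRT6A and KRT6B were 97.5% identical, KRT6A and KRT6C 97.9%, and KRT6B and KRT6C 98.5%. Of the 150-base windows of each transcript, the length of 1 read, 9.26% in KRT6A, 12.7% in KRT6B and 16.3% in KRT6C occurred without any mismatch in another gene.

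The type I copies were much less alike. In the stretches of KRT14 (coding bases 468 to 557), KRT16 (474 to 563) and KRT17 (375 to 464), each across exons 1 and 2, capitals mark the 36 positions that differ.
KRT14: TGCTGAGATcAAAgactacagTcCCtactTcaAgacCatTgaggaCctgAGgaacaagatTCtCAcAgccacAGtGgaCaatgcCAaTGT
KRT16: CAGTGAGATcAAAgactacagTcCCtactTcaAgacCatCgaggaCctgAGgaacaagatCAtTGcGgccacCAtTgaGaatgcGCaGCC
KRT17: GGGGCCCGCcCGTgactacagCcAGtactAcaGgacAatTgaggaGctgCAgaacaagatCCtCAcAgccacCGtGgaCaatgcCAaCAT
Coding identity was 85.4% between KRT14 and KRT16, 78.0% between KRT14 and KRT17 and 72.4% between KRT16 and KRT17. Only 0.605% of the 150-base windows of KRT14 and 0.729% of those of KRT16 were found in another gene, and 0 of those of KRT5, KRT15, KRT17 or KRT75. Counts of KRT6B and KRT6C are therefore uncertain, and the sums over copies are given beside them. Only unique alignments were kept, so reads that match copies equally would be lost, and a sum does not restore them.

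The promoter of KRT5 is shown because TP63 was among the targeted genes. The 250 bases before the RefSeq start of KRT5 (GRCh38.p14) held a half-site of the p53 family, to which p63 belongs. A half-site is only a part of the full motif. This one begins 97 bases before the start and is in capitals in the 30 bases at chr12:52520472-52520501 on the minus strand.
KRT5 promoter: gctgccccccAGGCATGCCCagcccactta
Searched on both strands, this half-site was in 5.57% of 35116 promoter windows of the same length. The window printed lies inside the span over which KRT5 was counted. The 250 bases before the KRT5 start also held CCGGT, found in 23.0% of windows, but not CCNCNCCC, ACAAT or TGANTCA. Those before the KRT75 start held CCNCNCCC, found in 53.4% of windows, but not the p53 family half-site. A match of letters is a description of the sequence, and binding was not measured here.

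The libraries summed to between 15655495 counts in siKLF5b and 34229063 in siGRHL2a. Levels are given as CPM, counts scaled to a common library size with TMM factors, a correction for differences in library makeup. Log2 fold changes (log2FC), standard errors (SE) and p-values are those of the quasi-likelihood test in edgeR, with p-values adjusted by Benjamini-Hochberg over all 25108 genes. A gene was called at the thresholds the study used, 0.05 for the adjusted p and 0.75 for the size of the log2FC. The columns of the table fall into 2 sets, siNC1 with siKLF5b, and siTP63b with siSOX2b and siGRHL2a. In the second set 66.1% to 69.0% of counts between 20 and 500 were even numbers, against 49.7% to 50.7% in the first, a difference whose cause was not tested. If both mates of a pair were counted in the second set, its counts overstate the number of fragments. For the second set against siNC1, the set and the knockdown cannot be told apart, and tests were therefore read within a set. Each gene had 1 estimate of spread over all 15 libraries, so SE and p-values in 1 set also reflect spread in the other.

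The targeted mRNAs served as a check of the labels. KLF5 was at 71.8, 71.8 and 73.8 CPM in siKLF5b and at 123, 109 and 107 CPM in siNC1, a log2FC of -0.64 ± 0.058 (SE) that did not reach the fold threshold (adjusted p = 5.29e-10). TP63 in siTP63b was at 363 ± 22.3 CPM (SD, n = 3), against 690 ± 38.2 in siSOX2b and 831 ± 28.3 in siGRHL2a. SOX2 was at 8.97 ± 1.63 CPM in siSOX2b, against 29.5 ± 2.23 in siTP63b and 20.2 ± 1.54 in siGRHL2a. GRHL2 was at 91.3 ± 0.560 CPM in siGRHL2a, below the 100 ± 4.58 of siSOX2b and the 117 ± 2.39 of siTP63b by less than the fold threshold. In each case the group aimed at a gene had its lowest level, and what remained of it differed widely between the targets. The cells carried the epithelial marker EPCAM and the squamous marker TP63 in every group, and 5 markers of blood cells summed to at most 1.21 CPM in any library, with PTPRC the most abundant and HBB at 0 in all groups. Of 8 mesenchymal markers CDH2 was the most abundant (52.2 to 102 CPM by group) and DCN was at 0 in all groups but siKLF5b, while 4 endothelial markers, led by VWF, summed to 3.15 to 15.1 CPM and 4 alveolar markers, led by NKX2-1, to 2.56 to 11.2 CPM. Apart from the targeted genes, some markers were called between groups. The epithelial CLDN4 and the mesenchymal PDGFRB were lower in siKLF5b than in siNC1. PDGFRB was lower in siTP63b than in siSOX2b. In siTP63b against siGRHL2a, DSC3, PDGFRB, ZEB1 and NKX2-1 were lower and CLDN4 higher. In siSOX2b against siGRHL2a, VWF was lower and PTPRC higher. In bulk RNA, fewer cells of a type and less RNA per cell cannot be told apart.

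KRT5 dominated the keratin counts of these cells. Among all 55 keratin genes in the table, it held from 49.8% of the keratin counts in siTP63b to 56.2% in siGRHL2a, followed by KRT19 and KRT13, keratins of other layers and simple epithelia. Per kilobase of transcript, KRT5 stood at 3858 ± 336 CPM in siNC1 (SD, n = 3), KRT17 at 414 ± 25.0 and KRT15 at 154 ± 27.1. KRT14, the usual partner of KRT5, was far lower at 33.7 ± 2.69 CPM per kilobase in siNC1, beside KRT6A at 32.3 ± 2.40, which overlaps it within the spread. KRT6C, KRT16, KRT6B and KRT75 followed at 4.99, 1.496, 0.720 and 0.275 CPM per kilobase. In siKLF5b KRT15 at 276 ± 5.15 CPM per kilobase stood above KRT17 at 149.97 ± 11.97, and KRT16 and KRT6B, which did not differ beyond their spread, changed places. KRT17 was second to KRT5 in the 3 other groups, at 323 ± 50.1 CPM per kilobase in siTP63b, 725 ± 75.7 in siSOX2b and 838 ± 45.1 in siGRHL2a. KRT14 came next in siGRHL2a (113 ± 7.64), in siSOX2b KRT14 (88.2 ± 13.8) and KRT6A (77.7 ± 2.56) overlapped, and in siTP63b KRT15 (68.9 ± 37.6) and KRT6A (56.1 ± 9.23) had higher means than KRT14 (39.2 ± 5.76), with a spread of KRT15 that covers both others. These orders rest on the canonical transcript length, whereas counts were taken over the whole gene. All 9 together made up 0.925% ± 0.0738 of the library counts in siNC1, 0.613% ± 0.0596 in siKLF5b, 0.665% ± 0.0639 in siTP63b, 0.911% ± 0.0518 in siSOX2b and 1.12% ± 0.0296 in siGRHL2a.

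**Figure D1:**
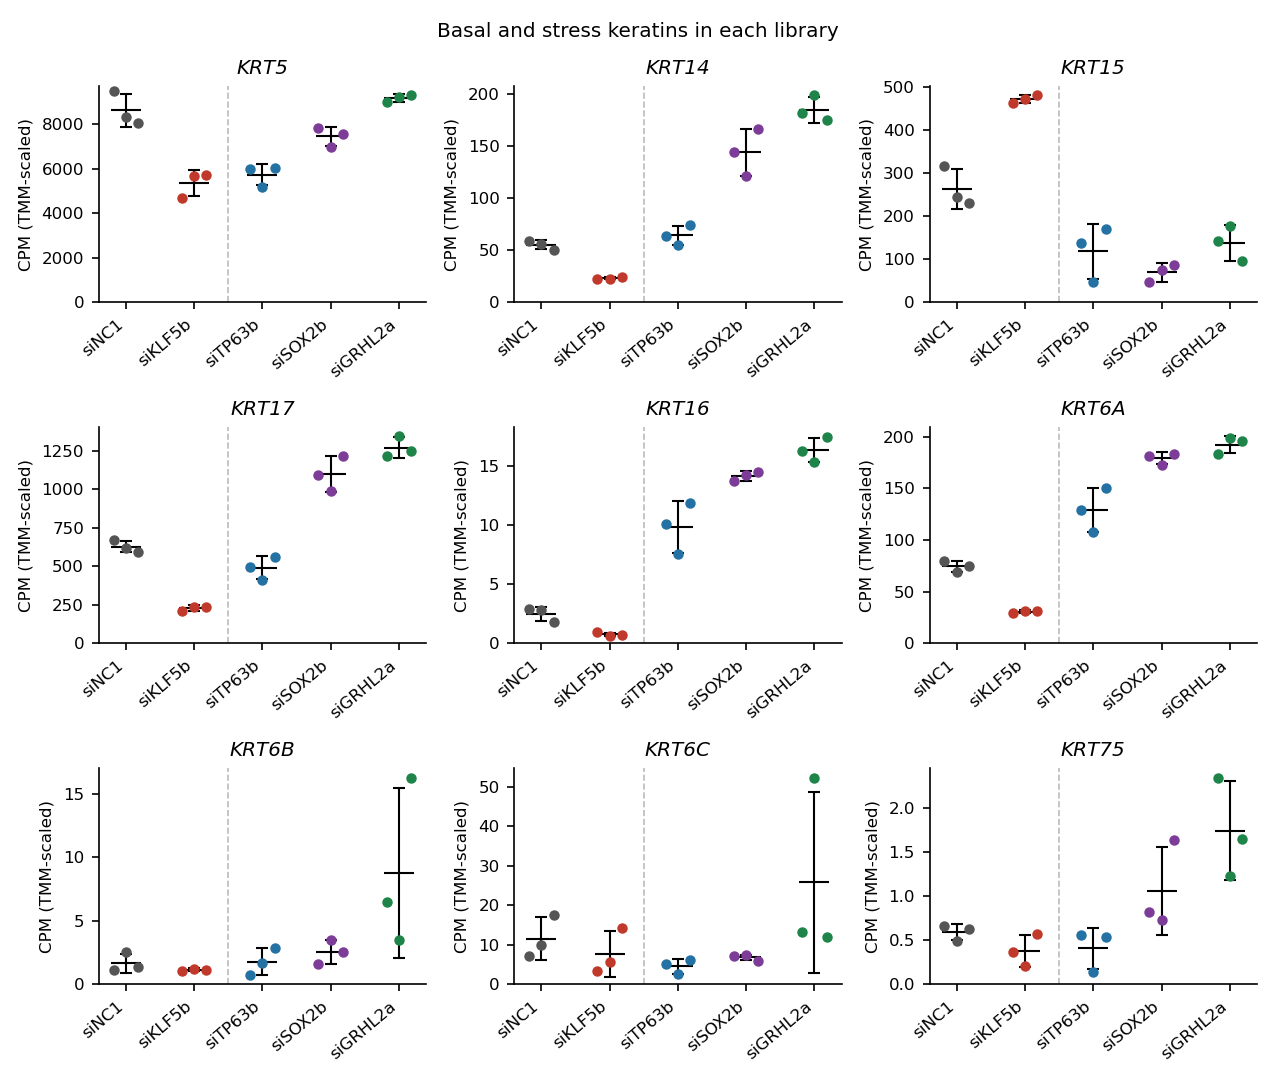
Level of each of the 9 keratins in CPM (vertical axis, from 0) in the 15 libraries, by group (horizontal axis). Points are libraries, bars the mean and SD of 3, and the dashed line parts the 2 column sets; KRT15 is higher in siKLF5b than in siNC1 while KRT14, KRT17, KRT16 and KRT6A are lower, and KRT6B and KRT6C each have 1 siGRHL2a library far above the others.

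The first comparison asks which basal and stress keratins differed when KLF5, a zinc-finger factor of epithelial progenitors, was knocked down. In siKLF5b, the type I keratins KRT17, KRT14 and KRT16 and the type II keratin KRT6A fell to between 0.304 and 0.418 of their siNC1 level, whereas KRT15 rose 1.79-fold. Of the 9 members, 4 were lower, 1 was higher and 4 were not called, beside 1.37% of all genes tested that were lower, 1.89% that were higher and 3.26% called in either direction. The median log2FC of the 9 was -0.73, against -0.0097 over all genes tested. For 6 members the libraries of siKLF5b and siNC1 did not overlap, as for 42.5% of all genes tested.

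KRT17, a stress keratin of wounded and transformed epithelium, was at 669.8, 618 and 596 CPM in siNC1 and at 207, 238 and 238 CPM in siKLF5b. The siKLF5b libraries lay well below every control library. Its log2FC was -1.47 ± 0.080 (SE), with an adjusted p of 9.71e-15. KRT16, its relative induced by wounding, was rare, at 2.88, 2.80 and 1.76 CPM in siNC1 and at 0.915, 0.616 and 0.700 CPM in siKLF5b. Its counts were only 42 to 65 per control library and 11 to 20 per siKLF5b library, yet the groups did not overlap and the log2FC was -1.72 ± 0.26 (adjusted p = 6.69e-06). KRT6A, the most abundant KRT6 copy, was at 80.1, 69.0 and 74.5 CPM in siNC1 and at 28.9, 31.5 and 31.3 CPM in siKLF5b. It fell by 1.29 ± 0.083 on the log2 scale (adjusted p = 3.42e-13), and the 3 siKLF5b libraries lay within 3 CPM of each other.

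Among the basal keratins, KRT14 was at 59.0, 56.0 and 50.4 CPM in siNC1 and at 22.2, 22.6 and 24.5 CPM in siKLF5b. It fell by 1.26 ± 0.10 on the log2 scale (adjusted p = 4.84e-11), with no overlap between the groups. KRT5, its type II partner, was at 9491, 8325 and 8083 CPM in siNC1 and at 4680.1, 5688 and 5720.4 CPM in siKLF5b. All 3 siKLF5b libraries were below all 3 controls, but the log2FC of -0.69 ± 0.067 (adjusted p = 2.55e-09) was short of the fold threshold, so KRT5 was not called. Measured against KRT5, KRT14 counts were 0.639% of KRT5 counts in siNC1 and 0.434% in siKLF5b, and KRT17 counts were 7.28% and 4.25%.

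KRT15, a basal keratin also known as a marker of quiescent progenitors, moved the other way. It was at 317, 243 and 231 CPM in siNC1 and at 463, 472 and 480.5 CPM in siKLF5b. The control libraries were spread and the siKLF5b libraries close together, with no overlap. The log2FC was 0.84 ± 0.24 (adjusted p = 0.00906), close to the threshold. The call was lost without siNC1 replicate 3 (log2FC 0.74, adjusted p = 0.0518) and with DESeq2 (log2FC 0.83, adjusted p = 0.127), while the fit of the 6 libraries of this set alone gave an adjusted p of 3.83e-09. All but the last of these fits include the second column set, so the SE and p-values also reflect the spread of KRT15 there. Its SD was 54.6%, 30.6% and 30.2% of the mean in siTP63b, siSOX2b and siGRHL2a. In siNC1 and siKLF5b it was 17.6% and 1.87%.

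KRT15 holds another gene, whose counts are given beside it and are not independent of it. The microRNA gene MIR6510 lies wholly within KRT15 on the same strand, at chr17:41517164-41517217, with 2 of its bases in exon 2 of the KRT15 canonical transcript. Reads appear to have been counted for every gene they overlapped, since 15510 of 20962 genes lying wholly inside another had counts, and 0 of 362850 comparisons of a nested gene with its host in a library gave the nested gene more. MIR6510 was at 51.7, 34.0 and 39.1 CPM in siNC1 and at 82.2, 73.5 and 80.8 CPM in siKLF5b, a log2FC of 0.92 ± 0.12 (adjusted p = 6.26e-07). Its counts were 13.97% to 16.9% of the KRT15 counts in siNC1 and 15.6% to 17.8% in siKLF5b, a similar share in both groups. With these counts subtracted from KRT15, the log2FC was 0.82 (adjusted p = 0.0146), an alternative chosen after the data were seen.

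**Figure D2:**
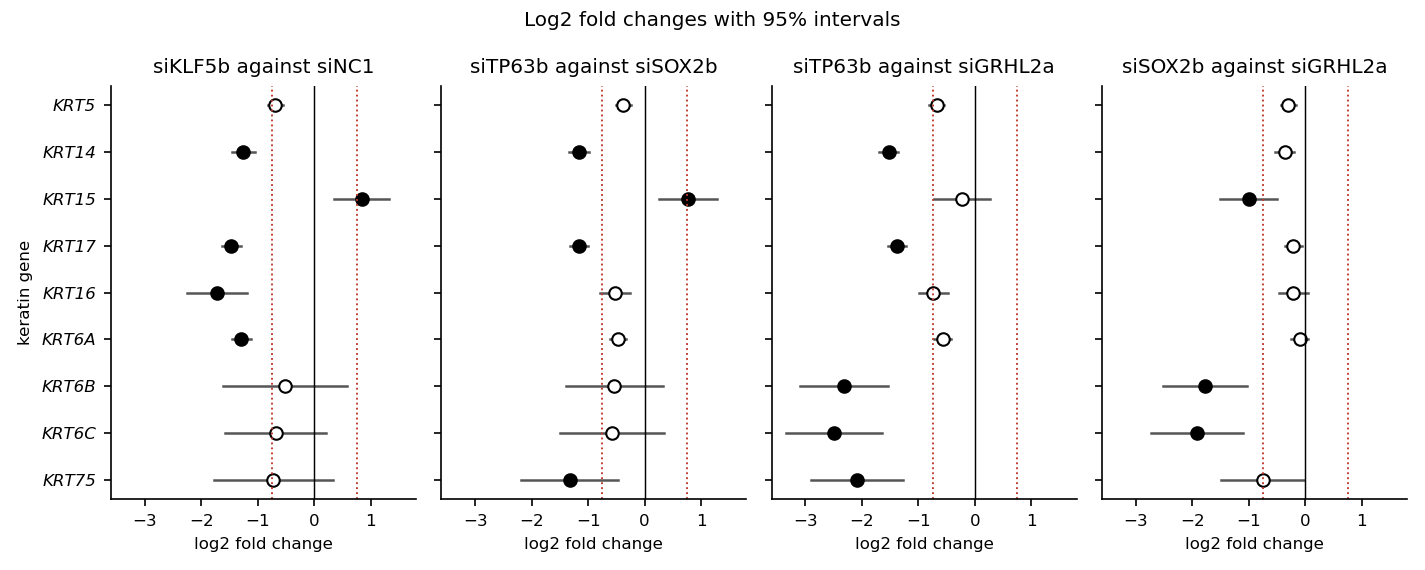
Log2 fold change (horizontal axis) of each keratin (vertical axis) in the 4 comparisons made within a column set. Lines are 95% intervals, filled points are called and dotted lines mark an absolute log2FC of 0.75; KRT14 and KRT17 are called lower in 3 of the comparisons, and KRT15 is the only member called higher.

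The less abundant type II members were not called in siKLF5b. KRT6B was at 1.11, 2.52 and 1.34 CPM in siNC1 and at 1.01, 1.23 and 1.14 CPM in siKLF5b (log2FC -0.51 ± 0.54, adjusted p = 0.556). KRT6C was at 7.18, 9.88 and 17.5 CPM in siNC1 and at 3.25, 5.51 and 14.1 CPM in siKLF5b. The groups overlapped for both copies, and the log2FC of KRT6C was -0.68 ± 0.44 (adjusted p = 0.295). It became -1.40 and was called without siKLF5b replicate 3, the library with most KRT6C. Summed over the 3 copies, KRT6 was at 87.7 ± 6.03 CPM in siNC1 and 39.3 ± 6.78 CPM in siKLF5b (log2FC -1.17 ± 0.10, adjusted p = 2.19e-10). KRT75 had 5 to 15 counts in these 6 libraries, 0.665, 0.494 and 0.629 CPM in siNC1 and 0.366, 0.205 and 0.572 CPM in siKLF5b, which could not show a difference of this size (log2FC -0.73 ± 0.51, adjusted p = 0.35).

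Among the 4 type I members, KRT15 and KRT17 exchanged the leading place. KRT19 and KRT13, type I keratins outside the 9, had more counts than either in both groups, 17.1% and 13.7% of all keratin counts in siNC1 and 20.9% and 11.05% in siKLF5b. Of the summed counts of KRT14, KRT15, KRT16 and KRT17, KRT15 held 27.7% ± 2.22 in siNC1 and 65.3% ± 1.36 in siKLF5b, and KRT17 held 66.3% ± 2.10 and 31.4% ± 1.41 (SD, n = 3). In every siKLF5b library KRT15 counts exceeded KRT17 counts, with a mean ratio of 2.08, and in every siNC1 library KRT17 was in excess, with a mean ratio of KRT15 to KRT17 of 0.418. The exact two-sided permutation p was 0.1, the smallest that 3 libraries against 3 allow. The 4 genes together moved less than their parts, with a sum of 949 ± 88.4 CPM for siNC1 and 723 ± 27.05 CPM for siKLF5b, 1.31-fold lower.

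**Figure D3:**
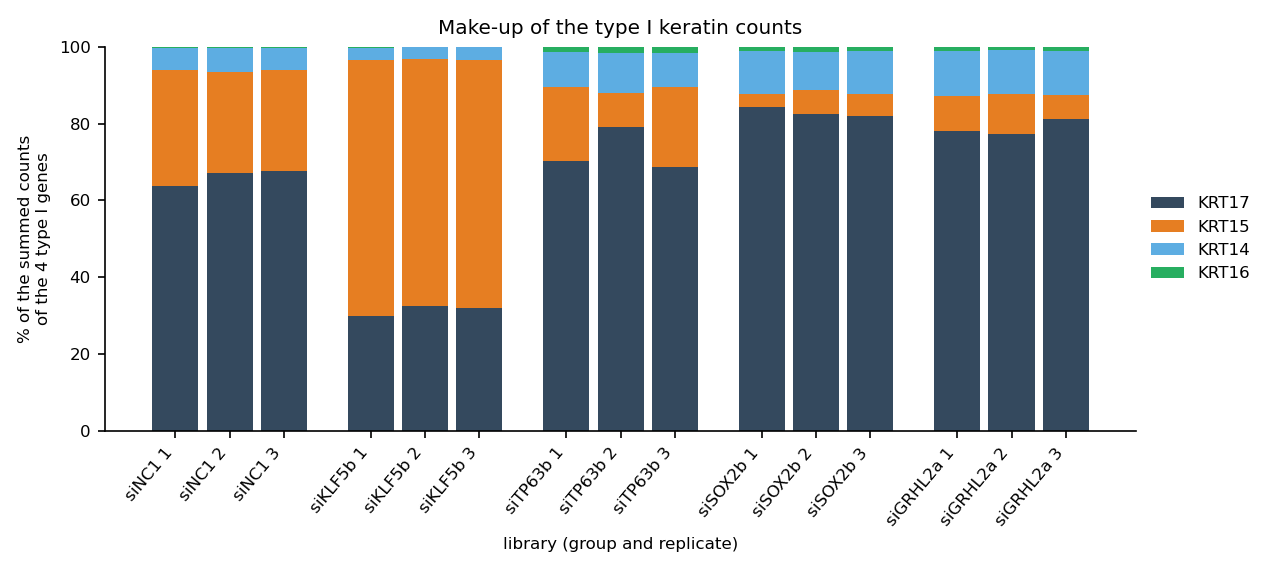
Share (vertical axis, % from 0 to 100) of KRT17, KRT15, KRT14 and KRT16 in their summed counts in each library (horizontal axis, group and replicate). KRT15 holds most of the counts in the 3 siKLF5b libraries and KRT17 in the other 12.

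Along the chromosomes, the call of KRT15 stood apart from its neighbours. Of the 14 keratin genes tested on chromosome 17, KRT13, KRT14, KRT16 and KRT17 were lower in siKLF5b and KRT15 was the only one higher. KRT13, a type I keratin of non-cornified stratified epithelium that lies next to KRT15, went from 2119 ± 181 to 1109.7 ± 73.5 CPM (log2FC -0.93 ± 0.065, adjusted p = 1.94e-12). KRT19, the neighbour on the other side, was not called (log2FC -0.33 ± 0.066). On chromosome 12, 2 of 19 keratin genes tested were lower, KRT6A and KRT80 (log2FC -1.19 ± 0.067, adjusted p = 1.57e-14), and 0 were higher. These counts on the 2 chromosomes stand beside 1.37% lower and 1.89% higher of all genes tested. KRT8 (log2FC -0.58) and KRT18 (log2FC -0.27), the pair of simple epithelium, were not called, being under the fold threshold.

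**Figure D4:**
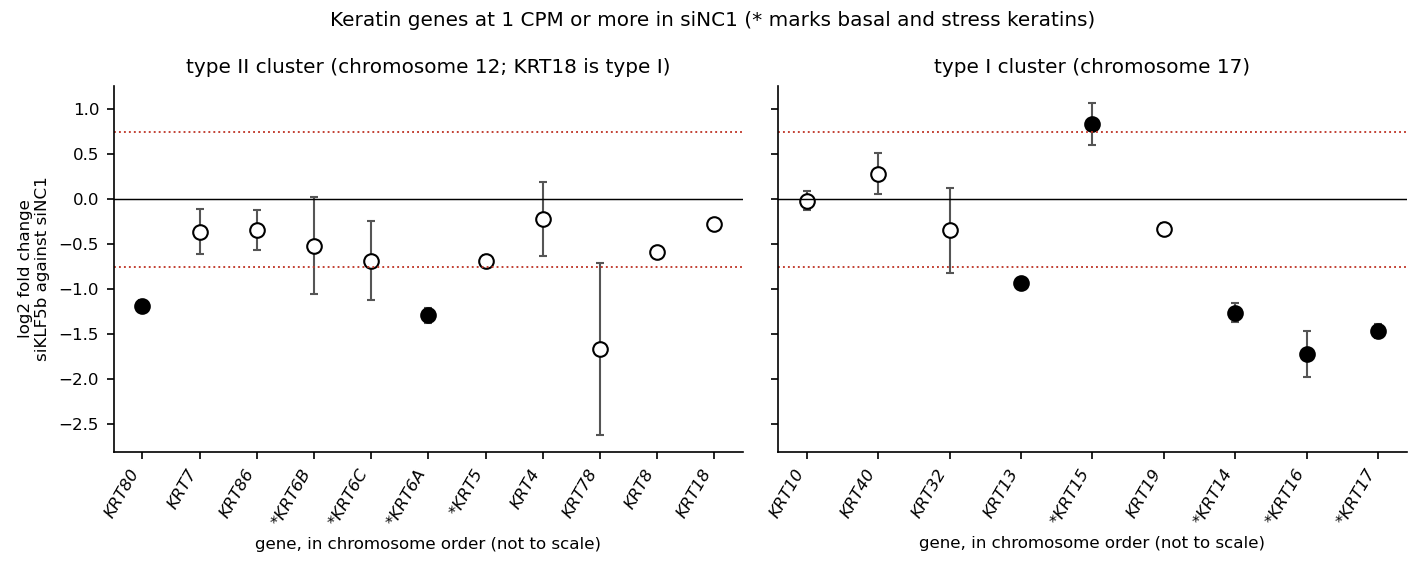
Log2 fold change in siKLF5b against siNC1 (vertical axis, with SE) of keratin genes at 1 CPM or more in siNC1, in chromosome order (horizontal axis, not to scale). Filled points are called, stars mark the basal and stress keratins, of which KRT75 is below 1 CPM and not shown, and dotted lines mark an absolute log2FC of 0.75; KRT15 stands above the line between KRT13 and KRT19.

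Genes that work with these keratins were described from lists chosen by function, beside the 1.37% of all genes tested that were lower and the 1.89% that were higher in siKLF5b. The median log2FC was -0.21 for linkers, -0.23 for adhesion genes, -0.50 for wound and stress genes and -0.27 for regulators, against -0.0097 over all genes tested. Of 14 genes for linkers and partners of keratin filaments, all tested, 3 were lower in siKLF5b and 0 higher. They were SFN (14-3-3 sigma, which binds keratins; log2FC -1.14 ± 0.10, adjusted p = 5.25e-10), the cytolinker PPL, which codes for periplakin (-0.80 ± 0.063, adjusted p = 2.88e-11), and EPPK1, which codes for epiplakin (-0.80 ± 0.115, adjusted p = 2.86e-06). Of 16 genes of basal cell adhesion 0 were called. Of 27 wound and stress genes of keratinocytes, 24 were tested, 6 were lower and 0 higher. The smallest p-values were those of PI3, the protease inhibitor elafin (log2FC -1.72 ± 0.20, adjusted p = 5.06e-08), the calcium-binding S100A9 (-0.86 ± 0.12, adjusted p = 1.16e-06) and the cytokine IL1B (-0.87 ± 0.13, adjusted p = 7.72e-06). Of 24 transcription regulators of keratin genes, the AP-1 genes JUN (log2FC -0.75 ± 0.11) and FOSL1 (-0.84 ± 0.16) and the differentiation factor ZNF750 (-0.93 ± 0.22) were lower and 0 were higher, while TP63 itself was not called (-0.13 ± 0.051, adjusted p = 0.0666).

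The remaining comparisons set siTP63b, siSOX2b and siGRHL2a against each other. They share libraries, each group standing in 2 of the 3 comparisons, so their results are not independent of each other. KRT14 and KRT17 were lower in siTP63b than in either of the other groups, by 2.24- to 2.89-fold, whereas KRT5, KRT16 and KRT6A differed by less than the fold threshold. In siTP63b against siSOX2b, 3 of the 9 members were lower and 1 higher, beside 2.82% and 3.88% of all genes tested and 6.7% in either direction. In siTP63b against siGRHL2a, 5 were lower and 0 higher, beside 3.21% and 2.18% (5.39% in either direction). In siSOX2b against siGRHL2a, 3 were lower and 0 higher, beside 2.27% and 1.05% (3.32% in either direction). The libraries of the groups did not overlap for 6, 8 and 6 members in this order, beside 38.3%, 35.6% and 35.2% of all genes tested. Without the fold threshold 7, 8 and 6 members passed, beside 31.8%, 27.1% and 24.5% of all genes tested, and 6 in siKLF5b against siNC1, beside 23.2%. The median log2FC of the 9 was -0.53, -1.37 and -0.36 in this order, and the median over all genes tested lay within 0.02 of 0 each time.

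KRT14 was at 63.4, 55.2 and 74.0 CPM in siTP63b, at 145, 121 and 166 CPM in siSOX2b and at 182, 199 and 175 CPM in siGRHL2a. Every siTP63b library lay below every library of the other groups. The log2FC was -1.17 ± 0.086 against siSOX2b (adjusted p = 2.71e-12) and -1.53 ± 0.086 against siGRHL2a (adjusted p = 7.8e-15). KRT17 was at 497, 411 and 563 CPM in siTP63b, at 1095, 988 and 1218 CPM in siSOX2b and at 1217, 1348 and 1249.7 CPM in siGRHL2a. Its log2FC was nearly that of KRT14, -1.17 ± 0.078 against siSOX2b (adjusted p = 2.87e-13) and -1.37 ± 0.078 against siGRHL2a (adjusted p = 1.03e-14). KRT14 counts were accordingly 13.1% ± 0.328 of KRT17 counts in siTP63b, 13.1% ± 0.708 in siSOX2b and 14.6% ± 0.511 in siGRHL2a. Between siSOX2b and siGRHL2a neither gene was called, with a log2FC of -0.36 for KRT14 and -0.21 for KRT17.

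KRT17 holds an antisense gene known only by its identifier, ENSG00000289252 at chr17:41621696-41622002, whose reads could not be told from those of KRT17 because the counting is not stated to use strand. Its counts were 7.50% to 9.48% of those of KRT17 in siTP63b and 10.6% to 11.9% in siSOX2b and siGRHL2a, and 19.6% to 23.6% in siNC1 and siKLF5b. With them subtracted, KRT17 remained called at a log2FC of -1.12 in siTP63b against siSOX2b, -1.33 against siGRHL2a and -1.42 in siKLF5b against siNC1.

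KRT5 was at 6017, 5198 and 6029 CPM in siTP63b, at 7849.7, 7004 and 7567 CPM in siSOX2b and at 9003, 9231 and 9342 CPM in siGRHL2a. The 3 groups did not overlap and kept this order. The log2FC was -0.38 ± 0.067 in siTP63b against siSOX2b (adjusted p = 3.94e-05), -0.68 ± 0.067 against siGRHL2a (adjusted p = 1.86e-09) and -0.30 ± 0.067 in siSOX2b against siGRHL2a (adjusted p = 0.00107), none past the fold threshold. KRT17 counts were 8.503% of KRT5 counts in siTP63b, 14.7% in siSOX2b and 13.8% in siGRHL2a.

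The stress keratins KRT6A and KRT16 were also lowest in siTP63b, by less than the fold threshold. KRT6A was at 129.6, 108 and 151 CPM in siTP63b, at 182, 173 and 184 CPM in siSOX2b and at 183, 199 and 196 CPM in siGRHL2a. The siTP63b libraries were the lowest, and the other groups overlapped. The log2FC was -0.47 ± 0.072 against siSOX2b (adjusted p = 4.61e-06) and -0.57 ± 0.071 against siGRHL2a (adjusted p = 1.78e-07). KRT16 was at 10.1, 7.55 and 11.9 CPM in siTP63b, at 13.7, 14.3 and 14.5 CPM in siSOX2b and at 16.3, 15.4 and 17.5 CPM in siGRHL2a. Its log2FC was -0.53 ± 0.13 (adjusted p = 0.00203) and -0.74 ± 0.13 (adjusted p = 4.05e-05), the latter just inside the fold threshold and past it without siTP63b replicate 3 (-0.88) or without siGRHL2a replicate 2.

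KRT6B and KRT6C were called lower in siTP63b and in siSOX2b than in siGRHL2a, on a wide spread among the siGRHL2a libraries. KRT6C was at 13.3, 52.2 and 11.9 CPM in siGRHL2a, at 5.09, 2.48 and 6.16 CPM in siTP63b and at 7.09, 7.31 and 5.97 CPM in siSOX2b. KRT6B was at 6.50, 3.47 and 16.3 CPM in siGRHL2a, at 0.751, 1.67 and 2.88 CPM in siTP63b and at 1.59, 3.46 and 2.57 CPM in siSOX2b. The high library was replicate 2 for KRT6C and replicate 3 for KRT6B, while KRT6A ranged only from 183 to 199 CPM in these 3 libraries. The log2FC against siGRHL2a was -2.50 ± 0.42 for KRT6C in siTP63b (adjusted p = 2.2e-05) and -1.92 ± 0.40 in siSOX2b (adjusted p = 0.000476). Without siGRHL2a replicate 2 these became -1.47 and -0.89. For KRT6B they were -2.32 ± 0.38 (adjusted p = 1.86e-05) and -1.78 ± 0.36 (adjusted p = 0.000408), and -1.497 and -0.96 without siGRHL2a replicate 3. Summed over the 3 copies, KRT6 was at 136 ± 23.7 CPM in siTP63b, 189 ± 4.68 in siSOX2b and 227 ± 26.0 in siGRHL2a, and none of the differences was called (log2FC -0.47, -0.74 and -0.27).

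KRT75 had few counts throughout, from 4 to 81 a library. It was at 0.555, 0.136 and 0.534 CPM in siTP63b, at 0.825, 0.728 and 1.64 CPM in siSOX2b and at 2.35, 1.24 and 1.65 CPM in siGRHL2a. The siTP63b libraries lay below all others. The log2FC was -1.33 ± 0.42 against siSOX2b (adjusted p = 0.016) and -2.09 ± 0.40 against siGRHL2a (adjusted p = 0.000149). The first call was lost without siTP63b replicate 2 (log2FC -0.92, adjusted p = 0.107) or siSOX2b replicate 3 (-0.93, adjusted p = 0.131). An antisense gene, ENSG00000257500, overlaps KRT75, with counts from 0% to 100% of those of KRT75 in a library and 30.2% over all libraries.

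KRT15 had a log2FC above 0 in siTP63b against siSOX2b, where the 8 other members had one below 0, and against siGRHL2a all 9 members had one below 0. It was at 137, 46.3 and 171 CPM in siTP63b, at 46.0, 74.6 and 87.5 CPM in siSOX2b and at 142, 178 and 94.7 CPM in siGRHL2a. The siTP63b libraries overlapped both other groups. The log2FC in siTP63b against siSOX2b was 0.77 ± 0.25 (adjusted p = 0.0173), a call that was lost without siTP63b replicate 1 or 3 or siSOX2b replicate 1 (log2FC 0.41 to 0.65) and with DESeq2 (adjusted p = 0.171). KRT15 was lower in siSOX2b than in siGRHL2a (log2FC -1.01 ± 0.25, adjusted p = 0.00295), which DESeq2 did not call, and siTP63b against siGRHL2a gave -0.23 ± 0.24 (adjusted p = 0.529).

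MIR6510 did not show the spread of KRT15 within siTP63b. It was at 3.46, 3.30 and 3.63 CPM in siTP63b, at 3.24, 2.12 and 3.41 CPM in siSOX2b and at 5.80, 4.25 and 7.40 CPM in siGRHL2a. In siTP63b against siSOX2b its log2FC was 0.26 ± 0.20 (adjusted p = 0.34), not called, and in siSOX2b against siGRHL2a it was -1.01 ± 0.18 (adjusted p = 8.47e-05), as large as that of KRT15. Its counts were 7.13%, 7.05% and 7.81% of the KRT15 counts in the library of each group with the lowest KRT15, and 2.13% to 4.08% in the 6 other libraries. The spread of KRT15 between these libraries was thus not shared by MIR6510. The part of MIR6510 in the KRT15 results of the second column set was not tested.

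**Figure D5:**
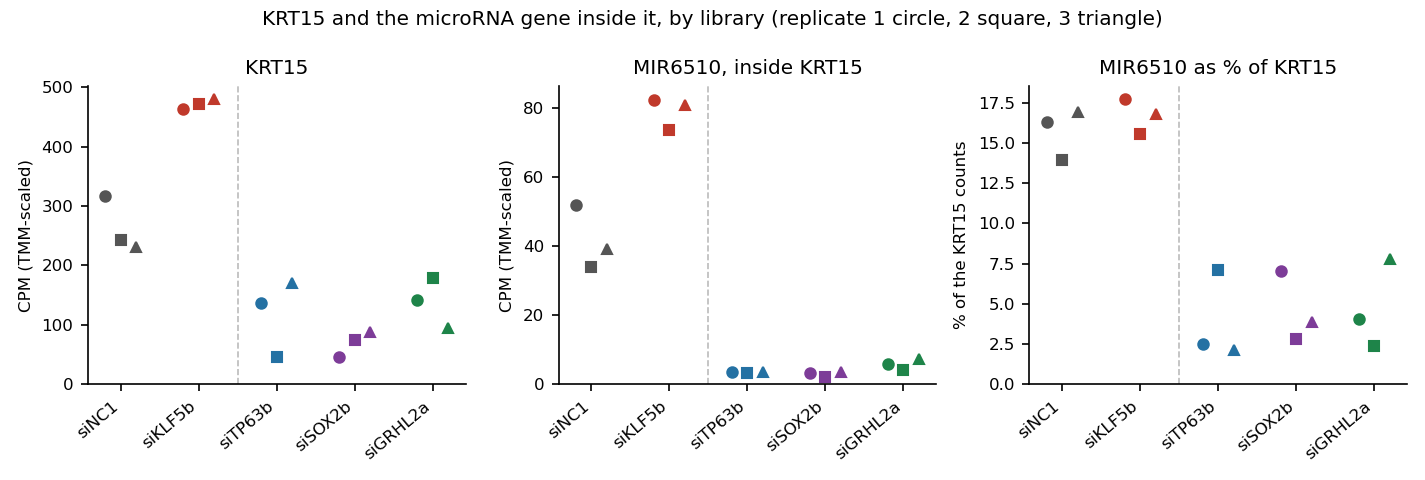
KRT15 (left, CPM), the microRNA gene MIR6510 inside it (middle, CPM) and MIR6510 counts as a percent of KRT15 counts (right), on vertical axes from 0, by library and group. Both genes are higher in siKLF5b than in siNC1; in siTP63b KRT15 ranges from 46.3 to 171 CPM while MIR6510 stays between 3.30 and 3.63 CPM.

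Beside these keratins, the pair of simple epithelium moved in the opposite direction in siTP63b. KRT18 was at 408 CPM in siTP63b on average, at 188 CPM in siSOX2b and at 157 CPM in siGRHL2a, with a log2FC of 1.12 ± 0.053 (adjusted p = 9.44e-17) and 1.37 ± 0.053 (adjusted p = 2.02e-18). KRT8, its type II partner, had log2FC values of 1.00 ± 0.052 and 0.98 ± 0.052. Of the 14 other epithelial keratins tested of 19, 2 were higher and 2 lower in siTP63b against siSOX2b, and 2 higher and 3 lower against siGRHL2a. Of all genes tested, 3.88% were higher and 2.82% lower in the first comparison, and 2.18% and 3.21% in the second. The median log2FC of the list was 0.053 and -0.53 in this order. KRT78, a type II keratin at low level, was the lower member with the smallest p (log2FC -1.94 ± 0.54 and -2.50 ± 0.52). It was at 0.163, 2.82 and 0.463 CPM in siTP63b, where replicate 2 stood far above the others. In siSOX2b it was at 4.40, 6.58 and 1.99 CPM, which overlapped siTP63b. In siGRHL2a it was at 5.60, 8.71 and 5.23 CPM, with no overlap. In siSOX2b against siGRHL2a, KRT1 (0.284 against 1.08 CPM) and KRT23 (0.0905 against 0.328 CPM) were lower, both at low level, and 0 were higher. Of all genes tested, 2.27% were lower and 1.05% higher in that comparison.

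Counts of the same lists in the second set stand beside 2.82% lower and 3.88% higher of all genes tested in siTP63b against siSOX2b, 3.21% and 2.18% in siTP63b against siGRHL2a, and 2.27% and 1.05% in siSOX2b against siGRHL2a. The median log2FC of the adhesion list was -0.35, -0.52 and -0.15 in this order, and that of the wound and stress list -0.46, -0.20 and 0.30. In the adhesion list, the integrin gene ITGA6 and the anchoring collagen gene COL7A1 were lower in siTP63b than in siSOX2b (log2FC -0.95 ± 0.050 and -0.98 ± 0.092), and 0 of 16 were higher. Against siGRHL2a, ITGA6 (-1.06 ± 0.050), the laminin gene LAMB3 (-0.98 ± 0.064) and COL7A1 (-1.34 ± 0.092) were lower and 0 higher. No linker was called in siTP63b against siSOX2b or in siSOX2b against siGRHL2a, and SFN (-1.18 ± 0.099) and EPPK1 (-0.90 ± 0.092) were lower in siTP63b than in siGRHL2a. In the wound and stress list, 5 of 24 genes tested were lower and 2 higher in siTP63b against siSOX2b, led by the cytokine IL1A (-1.59 ± 0.074, adjusted p = 5.25e-17), the hormone-like PTHLH (-0.94 ± 0.062) and the growth factor AREG (-1.31 ± 0.12). Against siGRHL2a 6 were lower and 1 higher, led by IL1A (-1.24 ± 0.073), IL1B (-1.06 ± 0.12) and SPRR3 (-0.83 ± 0.14). Between siSOX2b and siGRHL2a 1 was lower, SERPINB3, and 4 were higher, among them the growth factors TGFA (0.90 ± 0.078) and AREG (1.204 ± 0.11). Of the 24 regulators, 2 were lower and 3 higher in siTP63b against siSOX2b, and 2 and 2 against siGRHL2a. In siSOX2b against siGRHL2a, 1 was lower and 1 higher. These counts include the targeted TP63 and SOX2. JUN was lower in siTP63b than in siGRHL2a (-1.08 ± 0.090, adjusted p = 5.3e-11) and was also called lower than in siSOX2b. FOSL1 was higher in siTP63b (0.87 ± 0.11) and in siSOX2b (1.13 ± 0.11) than in siGRHL2a. CEBPB was higher in siTP63b than in siSOX2b (1.02 ± 0.089), and CEBPA was higher in siTP63b than in both other groups.

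Against siNC1 the column set comes in with the knockdown, and the values are given side by side with no reading. The log2FC of KRT16 was 2.001 in siTP63b, 2.53 in siSOX2b and 2.74 in siGRHL2a, and that of KRT6A 0.79, 1.26 and 1.37. For KRT14 it was 0.22, 1.39 and 1.75, and for KRT17 -0.36, 0.81 and 1.02. KRT15 had -1.16, -1.94 and -0.93, and KRT5 -0.59, -0.21 and 0.09. In siTP63b 2 of the 9 members were lower and 2 higher than in siNC1 (9.24% and 11.4% of all genes tested, 20.7% either way), in siSOX2b 1 and 4 (10.1% and 11.6%, 21.8% either way) and in siGRHL2a 1 and 7 (7.99% and 11.7%, 19.7% either way). Libraries did not overlap for 6, 7 and 7 members, beside 59.5%, 60.8% and 60.6% of all genes tested.

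The genes most like a keratin in pattern were sought among 12055 protein-coding genes outside the 9, by Pearson's r of log2 CPM over the 15 libraries after the mean of each column set was subtracted; the libraries of a group share their knockdown, and r is given as a description. For KRT14 and KRT17 the first was PDGFA, a growth factor gene (r = 0.99 and 0.98), followed by COL18A1 and PVRIG for KRT14 and by ITGB4, the integrin chain of hemidesmosomes to which KRT5 and KRT14 filaments attach, and VAV2 for KRT17. KRT5 was closest to KRT13 (r = 0.97), SFN and DDR1. KRT6A was closest to KRT13 (r = 0.97) and to SLC3A2 and SLC7A5, which code for the chains of an amino acid transporter. Among the members, KRT14 and KRT17 were the most alike (r = 0.99), KRT6A and KRT16 had 0.94, and KRT15 ranged from -0.26 with KRT6A to 0.32 with KRT6C.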

How the data were processed

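The deposited values are raw counts for 15 libraries, which the authors made with HISAT2 2.2.1 (hg38, unique alignments kept) and featureCounts 2.0.1 on Gencode release 40. The methods speak of reads; whether strand was used, and whether the mates of a pair were counted as 1 fragment, is not given in the sources used here. Each of the 15 columns carried the name of its library, and 0 columns had to be left out.

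The tests were run with edgeR 4.0.16 under R 4.3.3 (TMM factors, filterByExpr by group, 1 quasi-likelihood fit of 15 libraries). The step was tested on simulated counts of 24555 genes with 200 changed by a log2FC of 1.5 in siKLF5b against siNC1, where 200 were called and 5 unchanged genes too. The changed genes were drawn from those above a minimum mean count and simulated with the fitted spread. Detection of genes with few counts, such as KRT75, was not tested. Sequences came from GRCh38 with Gencode 44, which held 61445 of the 61544 gene identifiers. RefSeq promoters were at hand for KRT5 and KRT75.

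Named were all 9 keratins, the targeted genes, up to 3 called members of each list by smallest adjusted p, overlapping genes and the 3 protein-coding genes, with a mean of 100 counts or more, most like KRT5, KRT14, KRT17 and KRT6A. In siKLF5b against siNC1, KRT8, KRT18 and KRT19 were added after their values were seen. The members and lists were chosen with earlier results of these data known. With replicates not stated to be separate cultures, p-values measure the spread between these libraries. Alternatives were RLE and upper-quartile scaling, DESeq2 1.42.0, 2 other count filters, a fit of the compared libraries alone, a block on the replicate number, other fold thresholds, halved counts in the second set, summed copies and each library left out.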

Additional observations from a re-analysis of the deposited data

How the results depend on the processing

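Of 623 log2FC values of a keratin under an alternative, over the 4 comparisons within a set, 588 kept their direction and their side of the thresholds, 16 lost a call, 18 gained one and 1 turned. The other fold thresholds reuse the main log2FC, so direction could not change there. The log2FC of summed copies was entered for each copy, and for KRT14 and KRT16 it mostly reflects the more abundant KRT17. KRT15 in siTP63b against siGRHL2a, never called, turned from -0.23 to 0.16 without siTP63b replicate 2, and leaving out 1 library gave from -0.58 to 0.16. With no threshold on log2FC, the count of keratins called was 7 in siTP63b against siSOX2b, 8 in siTP63b against siGRHL2a and 6 in siSOX2b against siGRHL2a, beside 31.8%, 27.1% and 24.5% of all genes tested. Leaving out 1 library gave from 4 to 6 called in siKLF5b against siNC1, 3 to 4 in siTP63b against siSOX2b, 5 to 6 in siTP63b against siGRHL2a and 3 to 4 in siSOX2b against siGRHL2a. DESeq2 called 4, 3, 5 and 2. KRT14 and KRT17 kept their calls under every alternative in siKLF5b against siNC1 and in siTP63b against siSOX2b and siGRHL2a, as did KRT16 and KRT6A in siKLF5b. Same-numbered libraries did not deviate together over all genes tested (correlations from -0.045 to 0.049). Genes with few counts enter this check, which could miss a weak pairing by replicate number. With the replicate number as a block the counts were 5, 3, 5 and 3. KRT15 in siTP63b against siSOX2b (log2FC 0.75, just short of the threshold) was the only call lost. KRT75 had 4 to 81 counts a library.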
